A study of Mus musculus with 6 samples.

Results

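The genes described here encode the sensors, adaptor, proteases and pore-forming effector of the inflammasome in mouse marrow myeloid cells. The 8 members are Nlrp1b, Nlrp3, Nlrc4, Aim2, Pycard, Casp1, Casp4 and Gsdmd, taken by symbol from the 32285 genes in the count files. CD11b+ cells had been selected on magnetic columns from the bone marrow of untreated 2-month-old C57BL/6 mice and profiled by droplet-based 3′ single-cell RNA sequencing. The study compared 3 femur samples, of which replicate 1 was female and replicates 2 and 3 were male, with 3 mandible samples, all male. The labels say that femurs and tibiae were flushed, the study's methods name femurs alone, and neither gives the number of mice behind a sample. Mandible marrow was flushed after the molars had been pulled, together with the tooth sockets. The labels do not say that the 3 samples of a site came from separate animals, so the p-values below measure the spread between these samples, which may be technical. The selection keeps every cell type with CD11b on its surface, so neutrophils, monocytes and macrophages were all retained.

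An inflammasome is a cytosolic complex that forms when a sensor meets a microbial product or a sign of damage. In the route through the adaptor ASC, the sensor gathers ASC, which recruits pro-caspase-1. Active caspase-1 matures interleukin-1β and interleukin-18 and cleaves gasdermin D, whose freed fragment opens pores in the plasma membrane. In neutrophils and monocytes the sensor NLRP3 and pro-interleukin-1β are known to be induced by a priming signal, often through NF-kB, before any complex forms. A transcript level therefore describes the parts a cell has in stock and does not measure inflammasome activity.

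All 8 members are protein-coding genes, placed here on the mm10 build with the GENCODE vM21 annotation. Nlrp1b lies on the minus strand at chr11:71153102-71230733, and its paralogue Nlrp1a ends 8398 bases away from it. Casp1 and Casp4 are neighbours on the plus strand of chromosome 9, with 1563 bases between them. The last 500 bases of the annotated Nlrp1b transcripts, where 3′ reads are expected, held 892 distinct 50-base words, and 0 of them occurred in another gene. The corresponding share of words found elsewhere was 5.72% for Nlrc4 and 0.520% for Aim2, and 0 words were shared for the other 5 members. Reads from other parts of a gene, introns included, were not covered by this check. Aim2 overlaps Cadm3 on the opposite strand, and Cadm3 had 100 UMIs in all kept cells. Nlrc4 overlaps CT033749.1 on the same strand and Pycard overlaps Gm45205 on the opposite strand, and neither of these is a row of the count files.

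Promoter windows of 250 bases before to 50 bases after a start site were read from RefSeq on GRCm38.p6, where 7 of the 8 members had an entry. Gsdmd had none. The motifs searched, on both strands, were the PU.1 core GAGGAAG, the C/EBP core TTGCNNAA, AP-1 TGANTCA, and, by name, the ISRE core and the NF-kB consensus. They were found in 13.6%, 10.8%, 7.81%, 3.44% and 8.46% of all 32851 windows, in that order. The windows of Nlrp1b and Aim2 are shown because all their mandible samples lay below the femur samples in clusters 1 and 2. Of these, only Nlrp1b in cluster 1 passed in the reported fit. Those of Nlrp3 and Casp4 are shown because their mean levels were highest in cluster 1, the neutrophil-like cluster lowest in immature neutrophil markers. Capitals mark motif matches, which are descriptions of the letters and not evidence of binding.
Nlrp1b, chr11:71230684-71230983, minus strand, with a C/EBP core match and a PU.1 core match: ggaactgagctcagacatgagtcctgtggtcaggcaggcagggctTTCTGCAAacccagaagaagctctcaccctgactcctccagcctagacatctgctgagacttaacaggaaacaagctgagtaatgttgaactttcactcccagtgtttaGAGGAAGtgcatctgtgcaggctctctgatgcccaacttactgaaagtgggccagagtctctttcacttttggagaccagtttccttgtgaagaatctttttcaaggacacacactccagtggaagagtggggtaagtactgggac
Aim2, chr1:173420354-173420653, plus strand, with a PU.1 core match: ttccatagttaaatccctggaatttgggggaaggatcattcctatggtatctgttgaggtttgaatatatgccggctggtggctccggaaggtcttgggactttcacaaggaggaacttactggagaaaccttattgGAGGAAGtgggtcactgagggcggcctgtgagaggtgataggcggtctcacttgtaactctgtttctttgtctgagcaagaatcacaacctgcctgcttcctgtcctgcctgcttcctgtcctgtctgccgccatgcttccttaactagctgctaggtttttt
Nlrp3, chr11:59541319-59541618, plus strand, with an NF-kB consensus match: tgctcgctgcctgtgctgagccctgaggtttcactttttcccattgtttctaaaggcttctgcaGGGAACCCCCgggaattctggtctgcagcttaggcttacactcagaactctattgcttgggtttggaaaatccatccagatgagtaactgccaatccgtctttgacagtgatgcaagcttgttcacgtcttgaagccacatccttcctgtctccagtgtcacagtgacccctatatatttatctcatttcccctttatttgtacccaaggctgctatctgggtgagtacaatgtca
Casp4, chr9:5308599-5308898, plus strand, with overlapping and separate NF-kB consensus matches: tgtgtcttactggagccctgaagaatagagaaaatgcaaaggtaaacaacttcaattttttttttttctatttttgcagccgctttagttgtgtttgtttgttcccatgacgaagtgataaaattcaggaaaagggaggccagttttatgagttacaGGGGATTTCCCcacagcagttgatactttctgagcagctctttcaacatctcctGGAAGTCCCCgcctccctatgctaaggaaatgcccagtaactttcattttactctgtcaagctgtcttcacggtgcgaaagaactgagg
The Pycard window also held a PU.1 core and a C/EBP core match, the Nlrc4 window a C/EBP core match, and a further Nlrp3 window PU.1 core matches. A second Nlrp1b window, chr11:71201407-71201706, and the Casp1 window held no match to the 5 motifs, and AP-1 and the ISRE core were found in no member's window.

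The deposited table kept 69776 barcodes and placed them in 9 clusters at resolution 0.1, with 82962160 to 244946998 UMIs and a median of 6924 to 9158 UMIs per cell in a sample. In all, 500 barcode sequences occurred in more than 1 library, which covers 1000 cells. Levels are given as CPM, the UMIs of a gene per 1000000 UMIs summed over a sample's cells in a cluster. The summed level of 5 neutrophil precursor markers (Elane, Mpo, Prtn3, Ctsg, Fcnb) averaged 3731 CPM in cluster 4 and at most 328 CPM in any other. The 5 immature neutrophil markers (Ltf, Camp, Ngp, Chil3, Lcn2) were lower step by step, from 102603 CPM in cluster 4 through 97232 in cluster 0, 25245 in cluster 3 and 14222 in cluster 2 to 7707 in cluster 1. The sum of 6 mature markers (Il1r2, Csf3r, Retnlg, Mmp8, Stfa2l1, Cxcr2) was 2053 CPM in cluster 4 and 8533 in cluster 0. It was highest in cluster 3 at 34870 CPM, and lower in cluster 2 at 32948 and cluster 1 at 25063. The sequence 4, 0, 3, 2, 1 is called neutrophil-like from less to more mature, with clusters 3, 2 and 1 ordered by the fall of the immature markers alone. Cluster 5 was monocyte-like, with 4516 CPM of 6 monocyte markers against at most 1075 CPM elsewhere, and cluster 6 was B lineage-like, with 9008 CPM of 6 B lineage markers against at most 51.9 CPM elsewhere. Differences between clusters are described without a test, because the clusters had been made from these same cells.

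The sensors differed widely in where their transcripts lay. Nlrp3, the sensor of potassium efflux and membrane stress, averaged 14.3 ± 3.45 CPM (SD, n = 6 samples) in cluster 4, 32.8 ± 7.18 in cluster 0, 104 ± 44.2 in cluster 3, 281 ± 87.2 in cluster 2 and 419 ± 108 CPM in cluster 1. Each step was upward in 6 of 6 samples, and the level in cluster 1 was 29.3 times that in cluster 4. The ranges of samples still overlapped between clusters 1 and 2, which ran from 284 to 547 and from 170 to 373 CPM. Monocyte-like cluster 5 held 86.3 ± 20.4 CPM, 4.84 times less than cluster 1, and was lower than it in 6 of 6 samples. The summed level of 8 immediate early and stress genes, which respond quickly to handling and activation, also differed, at 725 CPM in cluster 4, 5322 in cluster 2 and 8206 CPM in cluster 1, and its part in the Nlrp3 result was not tested.

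Nlrp1b, which senses pathogen proteases, showed the widest span. Its level was highest in cluster 5 at 50.2 ± 14.1 CPM, followed by cluster 1 at 30.5 ± 14.8, cluster 7 at 16.2 ± 8.74 and cluster 2 at 8.93 ± 4.03 CPM, and every other cluster was at or below 2.83 CPM. Neighbours in this order overlapped in their sample ranges. From cluster 4 to cluster 1 the level differed by 37.1 times, with 6 of 6 samples higher in cluster 1. Cluster 7, which the deposited labels call neutrophils, had 890 cells.

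Aim2, the sensor of cytosolic double-stranded DNA, averaged 105 ± 18.3 CPM in cluster 5, 93.2 ± 34.8 in cluster 6 and 80.7 ± 22.5 CPM in cluster 1, ranges that overlapped. Within the neutrophil-like clusters it stood at 8.55 ± 1.03 CPM in cluster 4 and was 9.17 times higher in cluster 1, in 6 of 6 samples. Nlrc4, which reports bacterial flagellin and secretion-system proteins through NAIP partners, ran the other way. It averaged 24.1 ± 4.24 CPM in cluster 5, 18.2 ± 7.62 in cluster 6 and 7.06 ± 0.805 in cluster 4, and only 0.521 ± 0.273 CPM, from 49 UMIs in all, in cluster 1. In 6 of 6 samples Nlrc4 was lower in cluster 1 than in cluster 4, on average by 15.7 times.

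Pycard, which encodes ASC, moved opposite to Nlrp3 along the neutrophil-like clusters. It averaged 71.3 ± 7.77 CPM in cluster 4, 54.2 ± 5.34 in cluster 0, 28.3 ± 5.63 in cluster 3, 19.8 ± 5.38 in cluster 2 and 17.0 ± 3.05 CPM in cluster 1, a span of 4.23 times. Each step was downward in 6 of 6 samples except the last, where 5 of 6 were lower. Cluster 5 held 170 ± 34.6 CPM, 10.0 times the level of cluster 1. Cluster 1, the neutrophil-like cluster lowest in immature markers, thus carried the highest Nlrp3 level of the 9 clusters together with the lowest Pycard level.

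The proteases and the pore-forming effector varied far less. Casp1 averaged 55.5 ± 7.19 CPM in cluster 5, where the lowest sample, at 44.1 CPM, was above the highest sample of every other cluster. Elsewhere Casp1 ran from 14.8 ± 1.12 CPM in cluster 4 to 31.0 ± 4.18 in cluster 3. Casp4, which encodes caspase-11, the protease that binds cytosolic lipopolysaccharide, had its highest mean in cluster 1 at 76.4 ± 24.3 CPM and lay at 37.3 ± 7.15 CPM in cluster 4. Its samples in cluster 1 ran from 52.6 to 118 CPM and overlapped those of every other cluster except cluster 4. Gsdmd, the substrate that forms the pore, ran from 20.1 ± 12.9 CPM in cluster 8 to 49.9 ± 4.29 in cluster 5. From cluster 4 to cluster 1 these 3 genes differed by 1.80, 2.00 and 1.45 times, each upward in 6 of 6 samples.

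**Figure D1:**
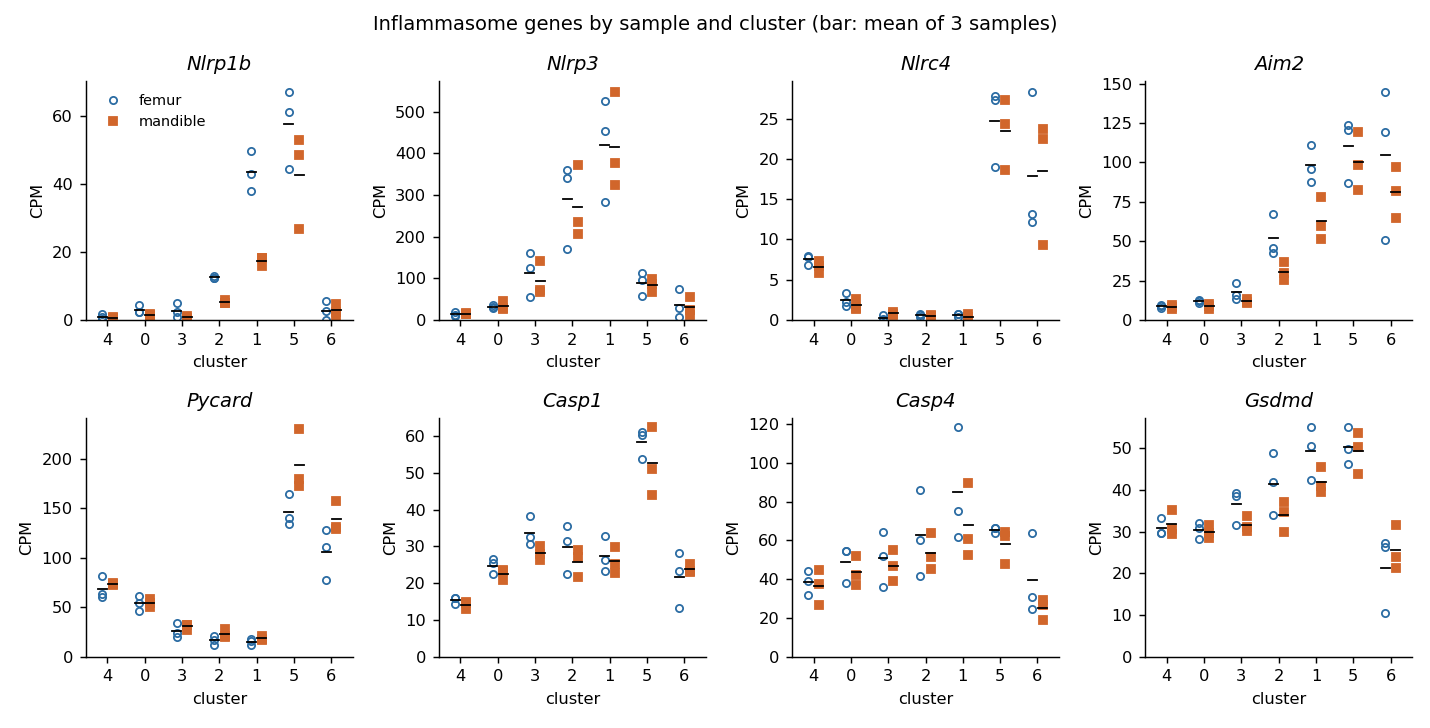
CPM (vertical axis, linear) of each of the 8 genes in the neutrophil-like clusters 4, 0, 3, 2 and 1, the monocyte-like cluster 5 and the B lineage-like cluster 6; open circles are femur samples, filled squares are mandible samples and bars are means of 3. Nlrp3 is highest in cluster 1, at 419 CPM, and Pycard is lowest there, at 17.0 CPM, and in clusters 1 and 2 the mandible squares of Nlrp1b lie below the femur circles.

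The share of cells with a UMI followed depth as well as level. Nlrp3 was seen in 71.7% ± 8.63 of cluster 1 cells (SD, n = 6), whose median was 4591 UMIs, and in 8.15% ± 4.16 of B lineage-like cells, whose median was 4285 UMIs. After each cell was thinned to 1000 UMIs, leaving out shallower cells (10 femur and 2 mandible cells in cluster 1, and 0 and 1 in cluster 6), these shares were 32.1% ± 5.25 and 2.22% ± 1.43. Pycard was seen in 72.3% ± 4.35 of cluster 4 cells and 67.1% ± 7.57 of cluster 5 cells, but cluster 4 had a median of 21561 UMIs, and after thinning the shares were 6.51% ± 0.904 and 15.3% ± 2.22. Nlrp1b was seen in 34.7% ± 6.39 of cluster 5 cells, 11.03% ± 4.55 of cluster 1 cells and 1.12% ± 1.17 of B lineage-like cells, with medians of 10085, 4591 and 4285 UMIs. After thinning to 1000 UMIs the shares were 4.68% ± 0.963, 3.30% ± 1.47 and 0.105% ± 0.258. UMIs of Nlrp3, Pycard and Casp1 were found together in 18.8% ± 1.56 of cluster 5 cells and 1.11% ± 0.220 of cluster 1 cells. At 2000 UMIs per cell, which left out 390 femur and 149 mandible cells of cluster 5 and 369 and 142 of cluster 1, these shares were 0.472% ± 0.257 and 0.0431% ± 0.0372. The shares were not split by reference label, and barcodes holding more than 1 cell were not set apart.

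**Figure D2:**
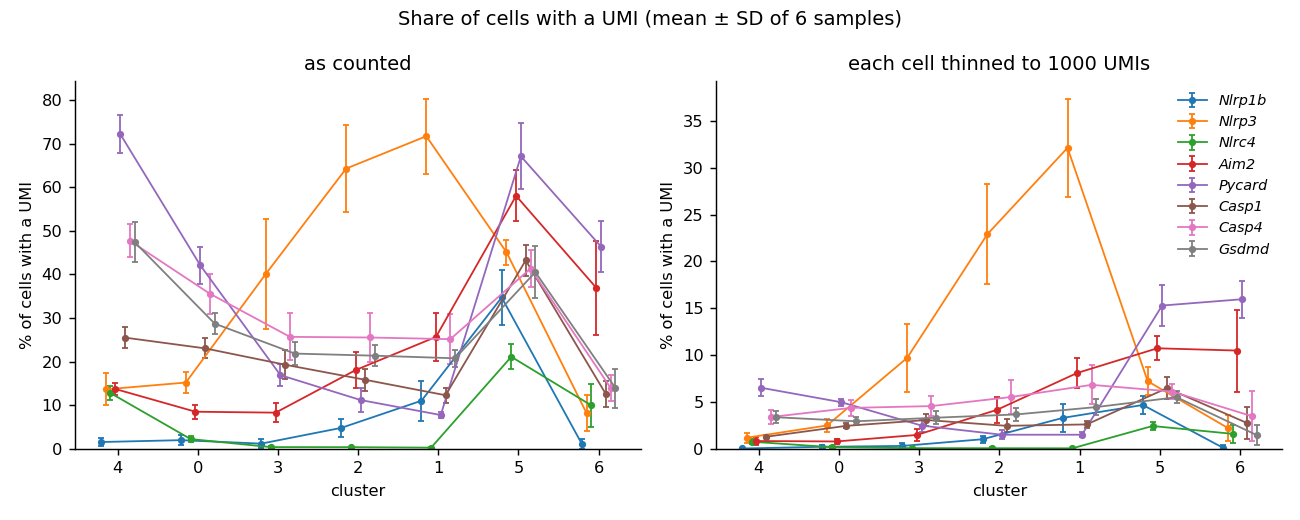
Percent of cells with at least 1 UMI of each gene (vertical axis) by cluster, as counted (left) and after thinning each cell to 1000 UMIs (right); points are means of 6 samples and bars are SD. In cluster 4, Pycard stands at 72.3% as counted and 6.51% after thinning, while Nlrp3 in cluster 1 stands at 71.7% and 32.1%.

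Cluster 5 was mixed by the deposited reference labels, with 3734 cells called monocytes, 2529 called neutrophils and 482 called macrophages. Pycard averaged 254 ± 56.0 CPM in the cells called monocytes, 98.2 ± 19.3 in those called neutrophils and 116 ± 23.2 in those called macrophages. Nlrp1b averaged 70.5 ± 15.3, 32.8 ± 10.6 and 74.4 ± 13.8 CPM in that order. Nlrc4 followed the order 31.6 ± 3.55, 16.2 ± 2.24 and 53.8 ± 23.9 CPM. Nlrp3 alone of these was highest in the cells called neutrophils, at 109 ± 35.6 CPM against 80.6 ± 20.6 in monocytes and 41.8 ± 13.96 in macrophages, and the sample range of the neutrophils overlapped that of the monocytes but not that of the macrophages. Levels that rest on the macrophage label come from as few as 46 cells in a sample.

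Over the 54 sums of 9 clusters and 6 samples, each member's profile was compared with those of 9943 genes by Pearson correlation of log2 CPM, as a description, since the sums share libraries, depth and cluster makeup. Nlrp1b was most like Gpr35 (r = 0.903), Itgax (0.897) and Dock4 (0.897). Nlrp3 was most like Junb, Plek and Fos (r = 0.946 to 0.948), of which Junb and Fos encode AP-1 subunits. Aim2 was most like Abca3, Jmy and Parp14 (0.893 to 0.923), and Nlrc4 like Ddx56, Mrpl35 and Rrp15 (0.945 to 0.952). Pycard was most like Ciao2a, Psmb4 and Ppib (0.949 to 0.954), and Casp1 like Ndufaf7, Nrbf2 and Sptan1 (0.939 to 0.956). The likeness was lower for Casp4, with Ifitm2, Gm2245 and Atp6v1a at 0.793 to 0.810, and for Gsdmd, with Gm49041, Ppp1r9a and Sgsh at 0.805 to 0.844.

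The main comparison of the design was between the skeletal sites within a cluster. Cluster 1 was the neutrophil-like cluster lowest in immature markers. There Nlrp1b measured 37.9, 43.0 and 49.7 CPM in femur replicates 1 to 3 and 18.3, 15.9 and 18.2 CPM in mandible replicates 1 to 3. All mandible samples lay below all femur samples. Nlrp1b fell by 1.18 ± 0.16 on the log2 scale in mandible (SE derived from the F statistic, edgeR quasi-likelihood test, Benjamini-Hochberg adjusted p = 0.0486), 2.27 times lower. It was the only member of the 7 tested there that passed, in a cluster where 9 of 10687 genes passed, or 0.0842%, and where 2 genes, or 0.0187%, passed as lower in mandible. Samples did not overlap, with mandible lower, for 2 of the 7 members and for 16.9% of all genes in this cluster. The median log2 difference was -0.10 over the 7 members and 0.00352 over all genes. CPM values, and so overlap, carry no TMM scaling between samples, whereas the log2 differences of the reported fits do. By edgeR without TMM the median over all genes was -0.13 in this cluster, so unscaled levels ran lower in mandible.

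The Nlrp1b difference in cluster 1 lay close to the threshold. Leaving out any of the 6 samples ended the call, with adjusted p = 0.0648 to 0.311 by edgeR, although the log2 difference stayed between -1.27 and -1.05. Without the female sample, which leaves 2 male femur samples, it was -1.27 with adjusted p = 0.0648 by edgeR. DESeq2 gave adjusted p = 3.29e-06 for the same counts and called 2.62% of all genes. The library numbers in the sample names were shared by 2 femur and mandible pairs, and the log2 ratio of CPM, mandible over femur, was -1.23 for number 6 and -1.64 for number 7.

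Marker genes of other cells and tissues were also compared between the sites in cluster 1. All 5 immature neutrophil markers were higher in mandible at an unadjusted p under 0.05 and 0 passed after adjustment, and their summed level was 3000 to 6826 CPM in femur samples and 6896 to 15947 CPM in mandible samples. Of the 6 monocyte markers, 5 were higher and 0 passed, with sums of 329 to 427 CPM in femur and 516 to 655 CPM in mandible. Of the 6 mature neutrophil markers, 2 were higher, 4 lower and 0 passed, with sums of 21614 to 23492 CPM in femur and 26028 to 28396 CPM in mandible. Of the 7 tooth, bone and stroma genes, 6 were tested, all 6 were higher and 3 passed, with sums of 4.53 to 5.39 CPM in femur and 28.3 to 61.6 CPM in mandible. The part of the monocyte, mature neutrophil and tissue markers in the Nlrp1b result was not tested. No marker of these 4 lists was at 0 in all samples. To measure Nlrp1b beside more alike cells, only cluster 1 cells with less than 0.5% of their UMIs from the 5 immature markers were kept, an alternative chosen after the data were seen. Nlrp1b then measured 45.7, 45.5 and 65.9 CPM in the femur samples and 22.3, 22.7 and 25.1 CPM in the mandible samples, with summed immature markers of 2228 to 3307 and 2198 to 2574 CPM. The log2 difference was -1.03 ± 0.19 and no longer passed (edgeR adjusted p = 0.140), and the samples still did not overlap.

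The share of cluster 1 cells with an Nlrp1b UMI was 15.2% ± 0.392 in femur and 6.90% ± 0.603 in mandible (SD, n = 3 each). After thinning to 1000 UMIs the shares were 3.74, 4.40 and 5.47% in the femur samples and 1.95, 1.92 and 2.31% in the mandible samples. These shares did not overlap either, and both sites lay above the 0.105% ± 0.258 seen in thinned B lineage-like cells.

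In cluster 2, the neighbouring mature neutrophil-like cluster, Nlrp1b measured 12.4, 12.9 and 12.5 CPM in femur and 5.77, 5.06 and 4.94 CPM in mandible. The samples did not overlap, and the summed immature markers were again higher in mandible, at 14257 to 22166 CPM against 6330 to 12432 CPM in femur. The log2 difference of -1.22 ± 0.18 did not pass (edgeR adjusted p = 0.0606), in a cluster where 0.0416% of genes passed and 8.41% did not overlap with mandible lower. It passed with DESeq2 (adjusted p = 0.000606), and with edgeR without the filter on low counts (7.37e-05) and without TMM (0.0340). When the library number was the block, in 4 libraries, Nlrp1b (0.000140), Aim2 (7.25e-05), Gsdmd (0.0421) and, higher in mandible, Nlrp3 (0.0326) passed by edgeR in cluster 2, where 12.4% of all genes passed in that fit. That fit has very few residual degrees of freedom, so its p-values rest largely on the spread shared across genes. Restricted to cells low in immature markers, the log2 difference of Nlrp1b was -0.67 ± 0.21, with edgeR adjusted p = 0.437.

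Nlrp1b was lower in mandible in 7 of the 7 clusters where it was tested, with log2 differences of -1.44 to -0.46. The unadjusted p by edgeR was under 0.05 in 5, clusters 0 and 3 among them. In clusters 0, 3 and 4 its mean level was 2.22, 1.83 and 0.836 CPM, no higher than the 2.83 CPM of B lineage-like cluster 6. The 7 clusters come from the same samples and are not separate observations. The difference of -1.44 was that of cluster 3, which rested on 83 UMIs in femur and 22 in mandible with overlapping samples. Leaving out 1 sample moved it over -1.87 to -0.76, and in cluster 4, at -0.73, over -1.10 to 0.01. In monocyte-like cluster 5, where its level was highest, it measured 67.1, 61.2 and 44.5 CPM in femur and 53.1, 26.7 and 48.7 CPM in mandible. Here the sites overlapped, and the log2 difference was -0.46 ± 0.24 (edgeR adjusted p = 0.736), or -0.63 to -0.22 with 1 sample left out. Over all cells Nlrp1b measured 12.3 to 19.6 CPM in femur and 6.80 to 12.1 CPM in mandible, a log2 difference of -0.65 ± 0.22 (edgeR adjusted p = 0.427). In a sum over all cells the mix of clusters and the level per cell cannot be told apart. The site difference of cluster 5 minus that of cluster 1 was 0.73 ± 0.28 on the log2 scale, with limma adjusted p = 0.467, so the clusters were not shown to differ. In that test 10.1% of 10383 genes reached an unadjusted p under 0.05 and 0% passed after adjustment. Of the members, Aim2 also reached it, with a difference of 0.40 ± 0.15 (limma adjusted p = 0.448). None of 8 members passed for cluster 5 minus cluster 0 either, with 0 at an unadjusted p under 0.05 by limma, where 10.8% of 11741 genes reached it.

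**Figure D3:**
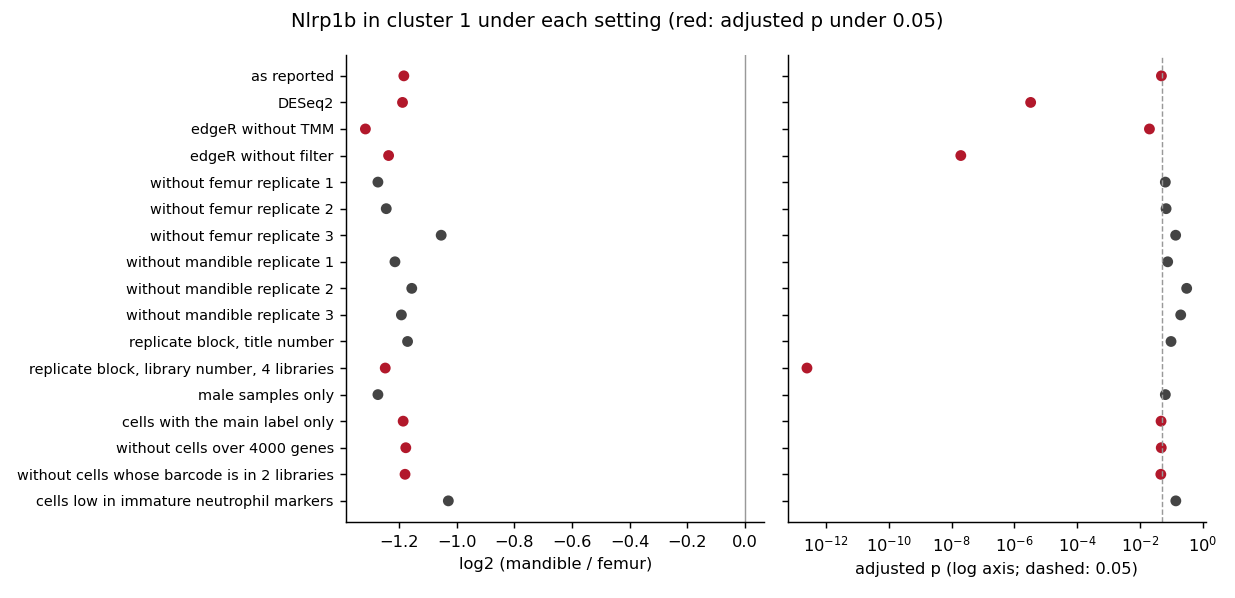
Log2 ratio of mandible over femur for Nlrp1b in cluster 1 (left) and its adjusted p on a log axis (right) as reported and under 16 other settings, each a row, of which male samples only and without femur replicate 1 are the same fit; red points have an adjusted p under 0.05. Every setting gives a negative log2 ratio, and the settings that leave out a sample lie to the right of the dashed line at 0.05.

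Aim2 had negative log2 differences in the neutrophil-like clusters too, but did not pass by edgeR with TMM and the filter over the 6 samples. Without the filter edgeR called Aim2 lower in mandible in cluster 2, where 461 of 20564 genes passed. In cluster 2 Aim2 measured 45.6, 67.6 and 42.4 CPM in femur and 37.0, 25.3 and 30.1 CPM in mandible. The sites did not overlap, and the log2 difference was -0.70 ± 0.17 (edgeR adjusted p = 0.161; DESeq2 adjusted p = 0.0433). In cluster 1 it measured 87.4, 111 and 96.0 CPM in femur and 78.4, 51.4 and 59.4 CPM in mandible. The samples again did not overlap in CPM, which carries no TMM scaling. The log2 difference, fitted with TMM, was -0.50 ± 0.17 (edgeR adjusted p = 0.238, or 0.00270 when the library number was the block). In the cells low in immature markers the Aim2 differences were -0.27 ± 0.15 in cluster 1 and -0.41 ± 0.17 in cluster 2, with edgeR adjusted p = 0.658 and 0.653. Cluster 5 gave -0.17 ± 0.15, with overlapping samples.

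Nlrp3 did not differ detectably between the sites over the 6 samples. In cluster 1 it measured 527, 454 and 284 CPM in femur and 547, 378 and 325 CPM in mandible, with a log2 difference of 0.13 ± 0.25 (edgeR adjusted p = 0.884). Replicates within a site differed more than the sites did. In clusters 2 and 5 the differences were -0.03 ± 0.27 and -0.09 ± 0.21, and the sign in all 3 clusters depended on the setting. When the library number was the block, in 4 libraries, Nlrp3 was higher in mandible in cluster 1, by 0.51 ± 0.14 (edgeR adjusted p = 0.00275), in a fit where 14.1% of all genes passed. Nlrc4, tested in 4 clusters, gave -0.39 to 0.10, and in cluster 5 measured 19.0 to 27.7 CPM in femur and 18.6 to 27.3 CPM in mandible.

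Pycard was higher in mandible in 8 of the 8 clusters where it was tested, by 0.05 to 0.49 on the log2 scale, although leaving out 1 sample turned the sign in clusters 0 (-0.09 to 0.13) and 7 (-0.16 to 0.28), and it passed in 0 of them by edgeR or DESeq2, with 0 at an unadjusted p under 0.05 by edgeR. In cluster 5 it measured 135, 164 and 140 CPM in femur and 173, 231 and 180 CPM in mandible. The mandible samples all lay above the femur samples, as they did for 7.32% of all genes in that cluster, and the log2 difference was 0.37 ± 0.17 (edgeR adjusted p = 0.710). In cluster 1 the values were 12.01, 15.7 and 18.5 CPM in femur and 17.1, 21.2 and 17.6 CPM in mandible. These overlapped, and the log2 difference of 0.40 ± 0.20 shrank to 0.08 ± 0.19 in the cells low in immature markers. The level of Pycard itself was higher in the less mature clusters, and the summed immature markers were higher in mandible in cluster 1, as given above. In cluster 5 those sums overlapped, at 15605 to 38803 CPM in femur and 17172 to 24919 CPM in mandible, while the tooth, bone and stroma genes summed to 24.99 to 32.9 CPM in femur and 120 to 1894 CPM in mandible, with 6 of 6 tested higher and 0 passed. The cells labelled monocytes, in which Pycard was higher, made up 45.9, 54.1 and 42.6% of cluster 5 in femur and 64.1, 51.2 and 50% in mandible, and those labelled neutrophils 29.7, 33.1 and 49.7% and 24.2, 30.7 and 33.7%. Within the cells labelled monocytes the log2 difference of Pycard was 0.36 (edgeR adjusted p = 0.425). The part of the tissue genes in the Pycard result was not tested.

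The proteases and Gsdmd were close between the sites. In cluster 1, Casp1 measured 26.4, 23.5 and 32.8 CPM in femur and 25.2, 29.9 and 22.8 CPM in mandible, a log2 difference of 0.05 ± 0.20 whose sign depended on the setting. Casp4 ranged from 61.6 to 118 CPM in femur and from 52.6 to 89.7 CPM in mandible, a log2 difference of -0.20 ± 0.30. Gsdmd ranged from 42.3 to 55.0 CPM in femur and from 39.5 to 45.6 CPM in mandible, a log2 difference of -0.10 ± 0.15. In cluster 5 the 3 genes gave -0.19 ± 0.15, -0.22 ± 0.16 and -0.09 ± 0.16, and over all cells -0.10 ± 0.14, -0.25 ± 0.21 and -0.12 ± 0.14. Across the clusters where they were tested Casp4 was lower in mandible in 8 of 8, Casp1 in 6 of 8 and Gsdmd in 5 of 8, but leaving out 1 sample turned the sign in 6, 4 and 5 of those 8 clusters, with 0 at an unadjusted p under 0.05 by edgeR and 0 called by DESeq2.

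By edgeR 0 members passed in clusters 0, 2, 3, 4, 5, 6, 7 and 8, and 0 of 8 over all cells. In these comparisons 0.0163%, 0.0416%, 0.0108%, 0.0245%, 0%, 0%, 0.0842%, 0% and, over all cells, 0% of genes passed. At an unadjusted p under 0.05 it was 2 of 8 members in cluster 0, 2 of 7 in cluster 1, 2 of 7 in cluster 2 and 2 of 7 in cluster 3, where 6.81%, 13.6%, 12.2% and 4.38% of all genes reached that level. In clusters 4, 5, 6, 7 and 8 it was 0, 0, 0, 1 and 0 members, against 13%, 7.11%, 4.04%, 5.32% and 1.1% of all genes, and over all cells 1 member against 9.37%. DESeq2 called 2 members in cluster 2, Nlrp1b and Aim2, where it called 1.85% of all genes, and none in clusters 0 and 3 to 8 or over all cells. In cluster 5 the median log2 difference was -0.14 over the 8 members and -0.01 over all genes. On simulated counts, a 2-fold change was recovered for 59% of changed genes in cluster 1 and 37% in cluster 5. More genes were changed there than passed in the reported fits, so this recovery may be overstated for these data. A change of that size could thus be missed in either cluster.

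**Figure D4:**
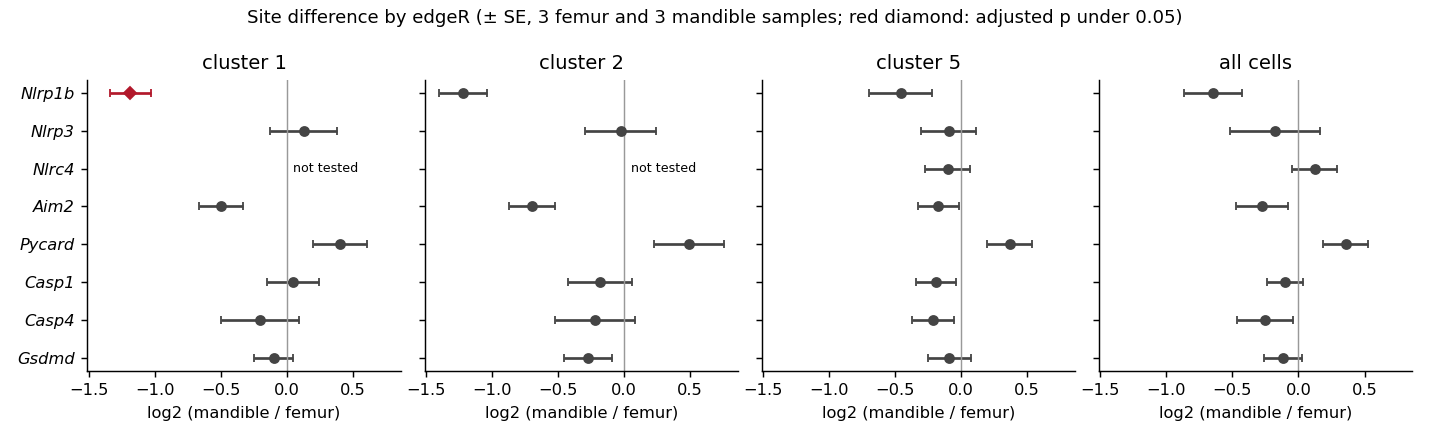
Log2 ratio of mandible over femur (horizontal axis) for each gene in clusters 1, 2 and 5 and over all cells. Bars are the SE derived from the edgeR F statistic on 3 femur and 3 mandible samples, and the red diamond passed an adjusted p of 0.05. Nlrp1b in cluster 1, at -1.18, is the only diamond, and Pycard lies to the right of 0 in all 4 panels.

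The paralogue Nlrp1a, next to Nlrp1b, was examined after its values had been seen. It measured 28.5 ± 6.17 CPM in femur and 18.4 ± 3.06 in mandible in cluster 1, a log2 difference of -0.50 ± 0.18 (edgeR adjusted p = 0.266), and 17.2 ± 3.36 against 9.46 ± 2.32 CPM in cluster 2, a difference of -0.82 ± 0.20 (edgeR adjusted p = 0.151, DESeq2 0.0457). In neither cluster did the samples overlap. In cluster 5 Nlrp1a measured 21.3 ± 2.63 and 21.8 ± 3.18 CPM and the samples overlapped. In cluster 1 all mandible samples also lay below the femur samples for the neighbours Rabep1 and Derl2. Their log2 differences there were -0.34 ± 0.14 and -0.17 ± 0.15, and in cluster 2 their samples overlapped. The neighbour Mis12 gave 0.0044 ± 0.27 in cluster 1. Neither Nlrp1a nor any other neighbour within 250000 bases of Nlrp1b passed by edgeR with TMM and the filter in cluster 1 or 2. Nlrp1a passed in cluster 2 without the filter (edgeR adjusted p = 0.00681), and in clusters 1 and 2 when the library number was the block (0.000102 and 0.000121).

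The other genes of the pathway were taken from a list of 45, of which 44 were in the files, covering other sensors, their regulators, further caspases and death effectors, cytokines, and priming receptors. By edgeR 0 of them passed in any cluster or over all cells, DESeq2 called 0 to 3 of them in each comparison, and edgeR run on unfiltered counts 0 to 5. In cluster 1, 37 were tested, with 1 higher and 7 lower at an unadjusted p under 0.05, where 6.54% of all genes were lower at that level. In cluster 2 it was 2 higher and 9 lower of 35, against 6.40% lower over all genes. In cluster 5 and over all cells it was 0 higher and 7 lower of 42 and of 43, against 3.86% and 4.68%. The median log2 difference of the list was -0.02 in cluster 1, -0.07 in cluster 2, -0.17 in cluster 5 and -0.12 over all cells. That of all genes ran from -0.013 in cluster 5 to 0.014 over all cells.

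Il1b, the main cytokine that caspase-1 matures, had the lowest p of the list in clusters 2 and 5 and over all cells. In cluster 5 it measured 269 ± 53.4 CPM in femur and 108 ± 10.2 in mandible, a log2 difference of -1.36 ± 0.19 (edgeR adjusted p = 0.328), and in cluster 1 it measured 2504 ± 739 and 1301 ± 211 CPM, -0.81 ± 0.25 (adjusted p = 0.208). Mefv, which encodes the sensor pyrin, had the lowest p in cluster 1, with 34.5 ± 8.93 and 14.9 ± 3.01 CPM, -1.09 ± 0.25 (adjusted p = 0.123). Tlr4, the lipopolysaccharide receptor, gave -0.50 ± 0.14 in cluster 1 and -0.53 ± 0.12 over all cells. The guanylate-binding proteins, which act on intracellular bacteria, gave -1.05 ± 0.25 for Gbp5 and -0.75 ± 0.23 for Gbp2 in cluster 5. None of these passed by edgeR with TMM and the filter. Without the filter edgeR called Il1b in clusters 0 to 5, 7 and 8 and over all cells (adjusted p = 2.69e-10 to 0.0429). The log2 difference of Il1b in cluster 2 was then -1.27 ± 0.18. Without the filter Mefv also passed by edgeR in clusters 1 and 2 (8.6e-07 and 0.000148). In that setting 0.0345 to 2.64% of all genes passed in a comparison. When the library number was the block, 9 list genes passed by edgeR in cluster 1, where 14.1% of all genes passed. Of the 9, 6 were lower, Mefv (1.13e-07) and Tlr4 (0.0345) among them. Serpinb1a, Cd14 and Tlr2 were higher (7.14e-25, 0.00808 and 0.0138). That fit has very few residual degrees of freedom, so its p-values rest largely on the spread shared across genes. DESeq2 called Il1b in clusters 0, 1, 2, 3, 5 and 7 and over all cells (adjusted p = 7.13e-08 to 0.0325), Mefv in clusters 1 and 2 (0.00471 and 0.0273), and Tlr4 and Gbp2 over all cells (0.0242 and 0.00601). Each of these DESeq2 differences was toward lower values in mandible. Serpinb1a, named after its values were seen, was among the list genes higher at an unadjusted p under 0.05, at 1.35 ± 0.42 in cluster 1 and 0.82 ± 0.27 in cluster 2. Without the filter it passed in both (edgeR adjusted p = 2.58e-10 and 0.000194), and when the library number was the block it passed in cluster 2 as well (1.74e-07). Serpinb1a encodes an inhibitor of neutrophil proteases.

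**Figure D5:**
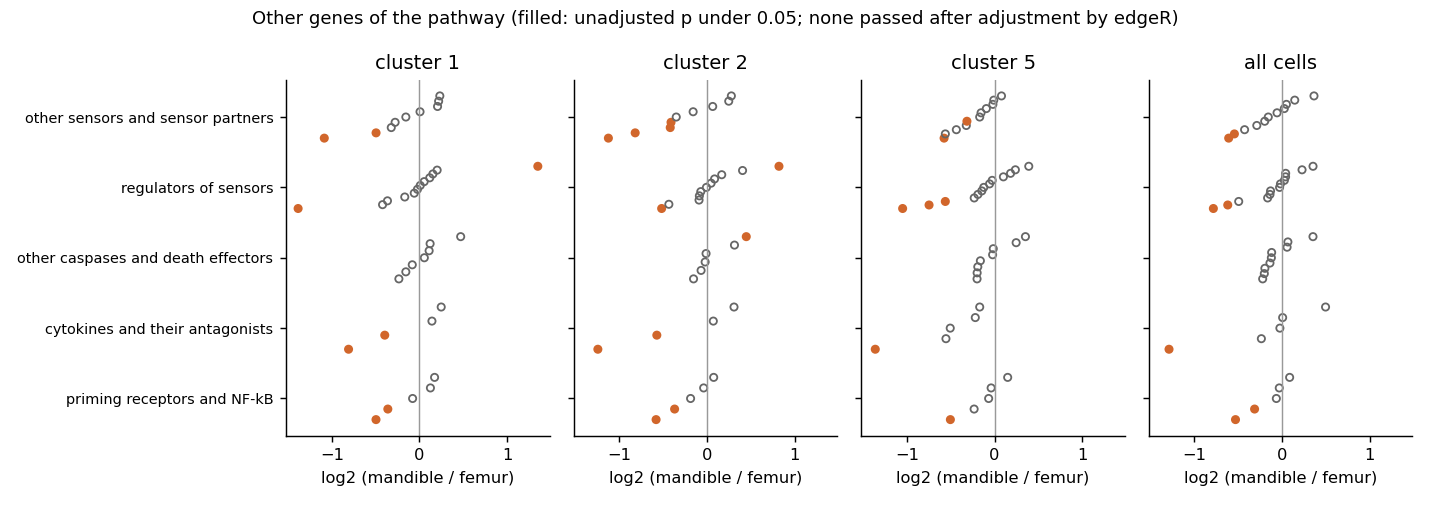
Log2 ratio of mandible over femur (horizontal axis) for the tested genes of the pathway list, grouped by role, in clusters 1, 2 and 5 and over all cells; each point is a gene and filled points have an unadjusted p under 0.05. Filled points lie mostly left of 0, with 7 lower in clusters 1 and 5, and none passed after adjustment by edgeR, while DESeq2 called 2, 3, 1 and 3 genes in the 4 panels.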

How the data were processed

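CD11b+ marrow cells of 3 femur and 3 mandible samples were compared. Per the labels and the study's methods, the authors aligned reads to mm10 with Cell Ranger 7.0.1 (the matrix headers name 7.1.0), kept cells with 600 to 6000 genes and at most 20% mitochondrial reads, and clustered with Seurat. The deposited values used here were raw UMI counts per gene and cell, and the deposited metadata gave clusters, reference labels and the percent of mitochondrial reads per cell. A deposited table of each cluster's fold changes and adjusted p-values against the other cells was not used. Columns of no sample numbered 0.

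Counts were summed per sample and cluster and tested for mandible against femur with the edgeR 4.0.16 quasi-likelihood test (R 4.3.3, TMM, filterByExpr), with Benjamini-Hochberg adjustment over all genes tested and a threshold of 0.05. Site effects of 2 clusters were compared with limma 3.58.1. DESeq2 1.42.0, no TMM, no filter, leaving out each sample, replicate blocks, male samples only, main label only and a ceiling of 4000 genes were alternatives. Excluding shared barcodes and keeping cells low in immature markers were added after the data were seen. No doublet caller was run. Samples held 7763 to 22797 cells. Error on a mean is the SD over samples. For edgeR the SE of a log2 difference is its absolute value divided by the square root of the F statistic, and for limma it is the SE of the fit. Fits were tested on simulated data. All members were named in every comparison, with the 3 pathway genes of lowest p in clusters 1, 2 and 5 and over all cells and the 3 genes most like each member among those reaching 10 CPM (prior count 2). Members and lists were chosen with earlier results of these data known. Title replicate numbers did not pair the samples, with correlations of deviations of -0.02, -0.38 and 0.18 in cluster 1. The library numbers, shared by 2 pairs, gave 0.50 and 0.29 there and were positive in clusters 0, 2 and 3 as well, too few pairs to settle a pairing. The values of 1 pathway gene are not reported here.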

Additional observations from a re-analysis of the deposited data

How the results depend on the processing

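Nlrp1b in cluster 1 was lower in mandible under all 16 alternatives run, with log2 differences of -1.32 to -1.03, and passed in 7 of them. Of the 16, 15 are distinct because leaving out femur replicate 1 leaves the male samples. Among the 7, main label only, the ceiling of 4000 genes and excluding shared barcodes kept nearly the same cells. They called 9, 11 and 9 genes in cluster 1. In the reported fits, summed over the 9 clusters, 1 member passed. DESeq2 gave 3, edgeR without TMM 2, edgeR without the filter 3, male samples only 0, and leaving out any sample 0. In cluster 1, 9 genes passed. DESeq2 gave 280, no TMM 37, no filter 577, male samples only 0, cells low in immature markers 2, and leaving out a sample 0 to 2. With the title number as a replicate block, 0 members and 1 gene in cluster 1 passed, and Nlrp1b had adjusted p = 0.0984 by edgeR. Blocking by the number that 4 libraries carry in their names gave 8 member calls over the 9 clusters. These were Nlrp1b, Aim2 and Nlrp3 in cluster 1, the same and Gsdmd in cluster 2, and Nlrp1b in cluster 3. Nlrp3 was higher in mandible and the others lower, and 1587 genes passed in cluster 1. The blocked fit leaves 1 residual degree of freedom, so its p-values rest largely on the spread shared across genes. Only 2 pairs share such a number and what it marks is not stated, so the cause was not tested.

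Of the pathway list, edgeR called 0 in every comparison, DESeq2 0 to 3, edgeR without the filter 0 to 5, the block on the library number 0 to 11, and leaving out a sample 0 to 1. Over all genes the reported fits called 0 to 0.0842%, DESeq2 0 to 2.62%, edgeR without the filter 0.0345 to 2.64%, the library number block 0.0361 to 14.1%, and leaving out a sample 0 to 0.762%.

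Signs that turned belong to differences that did not pass as reported, though Nlrp3 in cluster 2 passed with the library number block. Nlrp3 gave -0.016 in cluster 1 without TMM. In cluster 2 it gave 0.36 with the library number block, 0.16 in male samples and 0.26 in cells low in immature markers. In cluster 5 it gave 0.22 with that block, 0.052 in male samples and 0.042 with the main label only, and over all cells 0.11 with the block. Nlrc4 gave -0.037 over all cells with the main label only. Casp1 gave -0.088 without TMM and -0.0077 without the filter in cluster 1, and 0.051 with the library number block in cluster 2. Leaving out a sample moved Nlrp3 over -0.11 to 0.33 in cluster 1, -0.31 to 0.16 in cluster 2, -0.26 to 0.058 in cluster 5 and -0.63 to 0.035 over all cells. It moved Nlrc4 over -0.21 to 0.027 in cluster 5, Casp1 over -0.10 to 0.21 in cluster 1, -0.40 to 0.055 in cluster 2 and -0.17 to 0.0029 over all cells, and Casp4 over -0.50 to 0.14 in cluster 1 and -0.49 to 0.18 in cluster 2. It moved Gsdmd over -0.20 to 0.0081 in cluster 1, -0.19 to 0.082 in cluster 5 and -0.22 to 0.038 over all cells, Nlrp1b over -1.10 to 0.013 in cluster 4, and Aim2 over -0.16 to 0.032 in cluster 4 and -0.74 to 0.18 in cluster 7. Of the named-gene values, 557 kept direction and side of the threshold, 11 gained the call, 9 lost it and 35 turned. Over all 68 pairs of a member and a cluster or all cells, 91 of 1031 alternative values turned. The cause was not tested.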
